A study of Arabidopsis thaliana with 4 samples.

Results

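The genes described are 10 *Arabidopsis thaliana* genes of iron storage, transport and sensing: *FER1*, *FER2*, *VIT1*, the *VIT1*-like locus AT1G21140 (called *VTL1* here), *NAS3*, *YSL1*, *OPT3*, *FRO3*, *BTS* and *BHLH101*. They were listed by locus, and the list was chosen on measured values of these same libraries, so all their levels and ratios are given as a description, with no test. They are 10 of the 17099 genes that could be analysed and of the 37899 genes annotated on the nuclear chromosomes. The study sequenced leaf mRNA at an age of 3 weeks, from plants of the Col-0 ecotype under long days, to ask how transcripts change when a SET-domain protein and 2 LSD1-like histone demethylases are lost. The groups are the wild type Col-0, the T-DNA mutant *suvr5-1*, a double mutant for the demethylases (*ldl1-2 ldl2*) and a triple mutant that combines all these alleles (*suvr5-1 ldl1-2 ldl2*), with 1 library for each genotype. No value therefore has a replicate error, and each mutant was compared with the same Col-0 library. The sources used here do not say how many plants went into a library.

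Plants need iron for photosynthesis and respiration, but free iron damages cells, so leaves keep it bound. Ferritin in plastids and transporters in the vacuole membrane store it, nicotianamine chelates it for movement between cells, and oligopeptide and Yellow Stripe-like transporters load and unload the veins. In Arabidopsis, transcripts of *FER1*, *NAS3*, *YSL1* and *VTL1* are known to be high when iron is plentiful, and those of *BTS*, *OPT3*, *FRO3* and *BHLH101* when it is short.

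The sequences before 3 of the genes are shown because they hold the DNA words known from iron regulation and belong to genes with values on opposite sides of Col-0 below. The G-box (CACGTG, a palindrome, so both strands are read at once), a site of basic helix-loop-helix factors, occurred 3 times within 400 bases before the annotated start of *OPT3* and 3 times before that of *BTS*, and in no other of the 10 genes. Counted instead within 300 bases before the start codon, *FER1*, *FER2*, *FRO3* and *OPT3* held a G-box and *BTS* did not, where 6.28% of all genes did. In *FER1* it lay 143 bases before the start codon. Of 27444 protein-coding genes of TAIR10.1, 8.25% had a G-box in the window of 400 bases and 0.164% had at least 3. The window of 300 bases printed for *OPT3* ends 61 bases before the start (chromosome 4, 9250404 to 9250703, minus strand) and that of 150 bases for *BTS* ends 31 bases before it (chromosome 3, 6273786 to 6273935, plus strand). Both are from RefSeq's TAIR10.1, with the G-boxes in capitals.
OPT3: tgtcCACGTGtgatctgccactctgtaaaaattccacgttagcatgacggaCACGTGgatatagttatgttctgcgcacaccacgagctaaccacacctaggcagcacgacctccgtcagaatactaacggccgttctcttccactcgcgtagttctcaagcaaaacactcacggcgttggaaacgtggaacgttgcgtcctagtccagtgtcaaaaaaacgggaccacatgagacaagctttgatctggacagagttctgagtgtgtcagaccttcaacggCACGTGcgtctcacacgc
BTS: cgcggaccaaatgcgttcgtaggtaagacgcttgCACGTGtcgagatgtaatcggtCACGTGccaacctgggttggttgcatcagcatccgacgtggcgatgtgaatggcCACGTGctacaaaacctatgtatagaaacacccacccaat

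*FER1* carries the core of the iron-dependent regulatory sequence (IDRS, searched as CACGAGGC on both strands), an element known from ferritin genes. It lay 190 bases before the start codon, inside the annotated first exon, and within 300 bases before the start codon it was present in *FER1* alone of the 10 genes and in 0.233% of all genes searched. The 30 bases around it (chromosome 5, 229766 to 229795, minus strand, TAIR10.1) have the core in capitals.
FER1: attggatgtagCACGAGGCcgccacacgcc

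*FER2* had the IDRS core 884 bases before its start codon, where 0.663% of genes had it within 1000 bases. The octamer TACTAGTA, the word that the zinc fingers of SUVR5 bind, was searched on the 1000 bases before each annotated start. None of the 10 genes had the exact word there, against 2.73% of all genes. The study called motifs in promoters with a frequency matrix and its model includes related sequences. Such sites were not searched here, so they may be present in these genes. These matches are words in a window and were not measured as binding sites.

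Levels are given as read starts and as RPKM, which here is read starts per kilobase of merged exons and per 1000000 read starts on analysed genes. The libraries had 2953437 (Col-0), 4612377 (*suvr5-1*), 2585793 (double mutant) and 2990530 (triple mutant) reads on analysed genes. Ratios carry an exact 95% counting interval (Clopper-Pearson). It treats each read as an independent molecule and covers counting error only. Reads without molecular identifiers need not be independent, so it can be too narrow. Distinct positions and strands made up 15.4%, 12.8%, 11.6% and 15.7% of the nuclear reads in Col-0, *suvr5-1*, the double mutant and the triple mutant. The libraries that carry the *ldl2* mutation had 8 and 5 reads of *LDL2*, against 25 (Col-0) and 26 (*suvr5-1*) in the others. *SUVR5* and *LDL1* were not analysed here. The 8 leaf mesophyll marker genes analysed were read in all libraries, with a summed RPKM of 67134, 67525, 57686 and 47027 in Col-0, *suvr5-1*, the double mutant and the triple mutant. The 3 root and 4 seed markers analysed had 0 to 3 reads in any library. The rRNA gene AT2G01010 had 20568 reads in Col-0 and 1581 to 1782 in the mutants.

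Measured against Col-0, the genes known to be high under plentiful iron were lower in the mutants, with a wide interval for *VTL1* in the triple mutant (ratio 0.229 to 1.45). None of those known to be high under iron shortage was over 2-fold lower. In the double mutant none of these was over 2-fold higher either, with ratios of 1.30 (*BTS*), 1.02 (*OPT3*) and 0.823 (*FRO3*). *FER1*, *NAS3*, *YSL1* and *VTL1* were all over 2-fold lower in *suvr5-1* and in the double mutant, and *FER1* and *NAS3* in the triple mutant. *BTS* was over 2-fold higher in *suvr5-1*, and *BTS* and *OPT3* in the triple mutant. *FER2*, *VIT1* and *BHLH101* were hardly read in leaves. Because the RNA is from whole leaves, fewer cells of a type and less RNA per cell cannot be told apart.

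**Figure D1:**
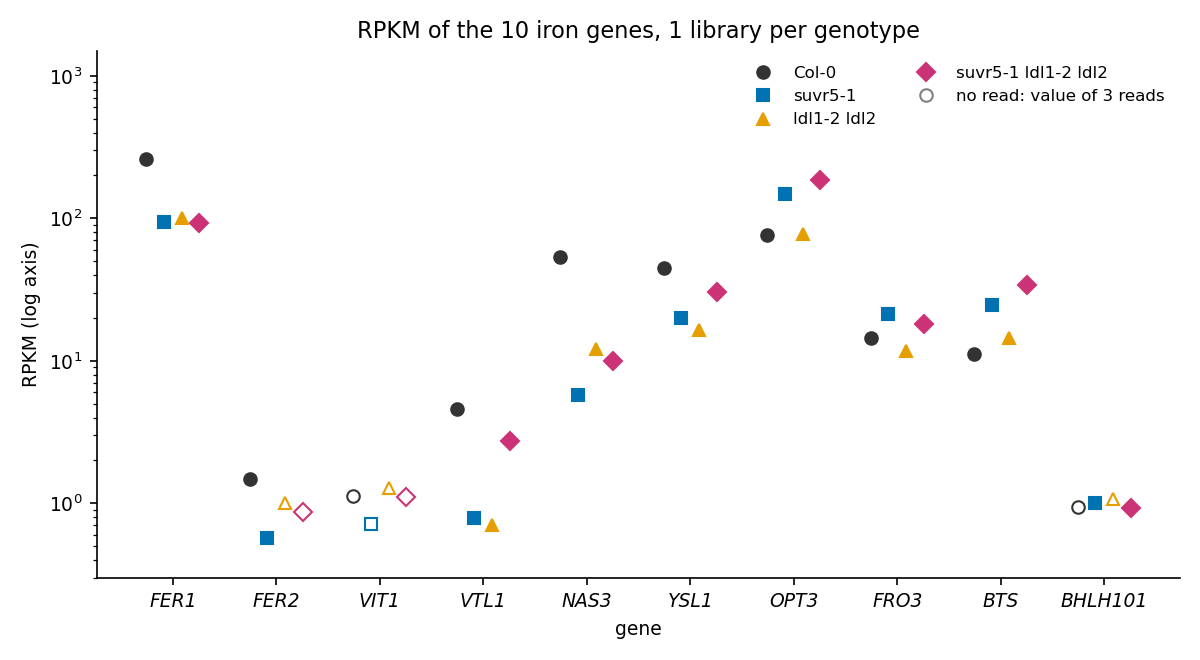
RPKM (log axis) of the 10 iron genes (horizontal axis) in the 4 libraries, 1 point for each genotype; an open symbol marks a gene with no read, drawn at the value of 3 reads. The Col-0 point lies above the 3 mutant points for *FER1* (259 against 92.5 to 99.9) and *NAS3* (53.8 against 5.72 to 12.1), and the *suvr5-1* and triple mutant points lie above Col-0 for *OPT3* and *BTS*.

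With at least 10 reads in either library, 7 of the 10 genes could be compared between each mutant and Col-0. In *suvr5-1*, 1 was over 2-fold higher and 4 lower, where 12.4% and 8.02% of the 9430 genes compared were. In the double mutant, 0 were higher and 4 lower, where 14.4% and 11.1% of 9117 genes were. In the triple mutant, 2 were higher and 2 lower, where 17.0% and 8.47% of 9231 genes were. The median log2 ratio of the 7 genes was -1.17, -1.38 and -0.56 in these comparisons, beside 0.02, -0.03 and 0.13 over all genes compared. At 4-fold, none of the 7 was higher in any mutant (4.97%, 5.65% and 7.03% of all genes were, in the same order). The numbers lower at 4-fold were 2 in *suvr5-1* (2.22% of all genes), 2 in the double mutant (3.31%) and 1 in the triple mutant (2.25%). *NAS3* was among them in every mutant and *VTL1* in *suvr5-1* and the double mutant. These counts follow from how the genes were chosen and show nothing further about them.

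**Figure D2:**
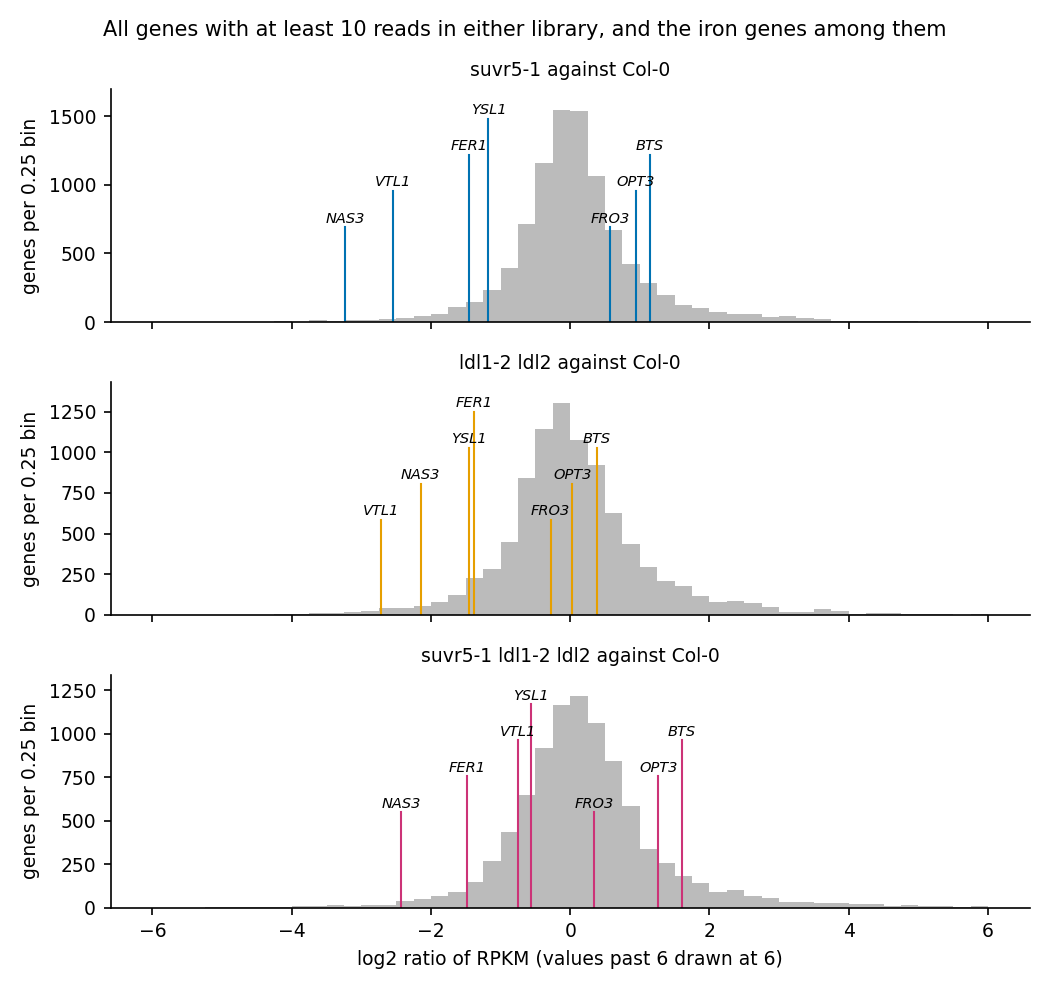
Histograms of the log2 ratio of RPKM to Col-0 (horizontal axis) for all genes with at least 10 reads in either library, counted per bin of 0.25 (vertical axis), in 1 panel for each mutant; vertical lines mark the iron genes compared. *NAS3* lies in the lower tail in each panel (-3.23, -2.15 and -2.43), *BTS* lies at 1.15, 0.38 and 1.60, and *FRO3* stays inside the bulk.

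*FER1* (AT5G01600, chromosome 5, 227953 to 230051, minus strand, 8 exons) encodes the main ferritin of leaf plastids, the shell that holds iron in mineral form. It had 1088 reads in Col-0, 620 in *suvr5-1*, 367 in the double mutant and 393 in the triple mutant, which is 259, 94.6, 99.9 and 92.5 RPKM. Col-0 stood apart, and scaled by reads on analysed genes the mutant levels lay within counting error of each other. *FER1* was 2.74-fold lower than Col-0 in *suvr5-1* (interval 2.48 to 3.03), 2.60-fold lower in the double mutant (2.30 to 2.93) and 2.80-fold lower in the triple mutant (2.50 to 3.15). The ratio of the triple mutant to *suvr5-1* was 0.978 (0.859 to 1.11) and that of the triple mutant to the double mutant was 0.926 (0.801 to 1.07). Scaled by all nuclear reads, the triple and double mutants were at log2 -0.33 and -0.15 against *suvr5-1*. Counted once per position they were at -0.25 and -0.14. These values lay outside the counting intervals of the main scaling.

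Along the *FER1* transcript, the gap was widest toward the 3′ end. In the 711 exon bases at the 3′ end, 896 Col-0 reads stood against 449, 254 and 274 in *suvr5-1*, the double mutant and the triple mutant, with log2 ratios of -1.64, -1.63 and -1.73. In the 710 bases at the 5′ end, 192 reads stood against 171, 113 and 119, with log2 ratios of -0.81, -0.57 and -0.71, all under 2-fold. The first read of the annotated first exon lay 216 to 301 bases after its start, and the start codon lies at 457 bases. When each position and strand was counted once per library, *FER1* was at log2 -0.81 in *suvr5-1* and -0.95 in the double mutant, both under 2-fold, and at -1.06 in the triple mutant. *FER1* had 352 distinct positions in Col-0 and 218, 117 and 179 in the mutants. No stretch of 29 bases of its exons occurred unchanged elsewhere in the genome. A long noncoding RNA gene on the other strand, AT5G01595, overlaps the *FER1* span but no exon base of it, and strand was not used.

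The 5 genes most like *FER1* in the 3 log2 ratios to Col-0, among 7145 genes with at least 50 reads in 1 library, were AT5G02720 (Euclidean distance 0.0810), AT4G08735 (0.182), *SYTC* (0.226), *U6.5* (0.238) and *EXL4* (0.259). By its symbol *U6.5* is a gene of small nuclear RNA, not of mRNA, and it was at log2 -1.60, -1.29 and -1.32. The rRNA gene AT2G01010 also had more reads in Col-0 (20568) than in any mutant (1581 to 1782). Whether such RNA in the Col-0 library bears on the *FER1* ratios was not tested. *BHLH101* had no Col-0 read, so no list of nearest genes could be computed for it.

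*FER2* (AT3G11050, chromosome 3, 3463477 to 3465506), the ferritin of seeds, had 5 reads in Col-0, 3 in *suvr5-1* and 0 in the other libraries. A count of 0 allows up to 3 reads, or 1.01 RPKM in the double mutant and 0.874 in the triple mutant, so a difference was not detectable at this depth. *VIT1* (AT2G01770, chromosome 2, 334663 to 336462), which carries iron into seed vacuoles, had no read in any library, which allows 0.721 to 1.29 RPKM. *VTL1* (AT1G21140, chromosome 1, 7404328 to 7405426), a vacuolar iron transporter-like gene without introns, had 15 reads in Col-0, 4 in *suvr5-1*, 2 in the double mutant and 9 in the triple mutant. These are 4.62, 0.789, 0.704 and 2.74 RPKM. The ratio of *suvr5-1* to Col-0 was 0.171 (0.0413 to 0.536), that of the double mutant was 0.152 (0.0169 to 0.655), and that of the triple mutant was 0.593 with an interval (0.229 to 1.45) that holds 1. With so few reads the size of the *VTL1* ratios is hardly known.

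*NAS3* (AT1G09240, chromosome 1, 2984829 to 2986231, plus strand, 1 exon), a nicotianamine synthase, had the ratio to Col-0 farthest from 1 in each mutant among the 6 genes with over 100 reads in either library. It had 223 reads in Col-0, 37 in *suvr5-1*, 44 in the double mutant and 42 in the triple mutant, or 53.8, 5.72, 12.1 and 10.0 RPKM. Col-0 was again alone at the high end. *NAS3* was 9.41-fold lower in *suvr5-1* (6.62 to 13.7), 4.44-fold lower in the double mutant (3.20 to 6.28) and 5.38-fold lower in the triple mutant (3.85 to 7.67). Among the mutants it was 2.12-fold higher in the double mutant than in *suvr5-1* (1.34 to 3.38), and the triple mutant lay between them, 1.75-fold above *suvr5-1* (1.098 to 2.80). The *NAS3* reads lay mostly in the 702 bases at the 3′ end, with log2 ratios of -3.24, -2.45 and -2.49 to Col-0. In the 701 bases at the 5′ end they were -3.18, -0.97 and -2.07, and the interval in the double mutant (-2.03 to 0.02) held 0. Of its stretches of 29 bases, 2.98% occurred elsewhere in the genome. Counting each position once left the log2 ratios at -3.13, -1.99 and -2.21.

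*YSL1* (AT4G24120, chromosome 4, 12524186 to 12527347, plus strand) encodes a transporter of iron bound to nicotianamine that acts around leaf veins and in seed filling. It had 364, 252, 116 and 250 reads in Col-0, *suvr5-1*, the double mutant and the triple mutant, or 45.0, 19.9, 16.4 and 30.5 RPKM. The triple mutant was the mutant library nearest to Col-0. *YSL1* was 2.26-fold lower than Col-0 in *suvr5-1* (1.92 to 2.66), 2.75-fold lower in the double mutant (2.22 to 3.42) and 1.47-fold lower in the triple mutant (1.25 to 1.74). The triple mutant was 1.53-fold above *suvr5-1* (1.28 to 1.83) and 1.86-fold above the double mutant (1.49 to 2.34). The 5′ and 3′ parts of the transcript had the same sign in every mutant, from -2.25 to -0.75 over the 1370 bases at the 5′ end and from -1.12 to -0.45 over the 1371 bases at the 3′ end. Scaled by all nuclear reads, *YSL1* in *suvr5-1* was at log2 -0.91, under 2-fold.

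*OPT3* (AT4G16370, chromosome 4, 9247302 to 9250343, minus strand, 5 exons) encodes an oligopeptide transporter of companion cells that loads iron into the phloem. Per exon base it was above *FER1* in *suvr5-1* and the triple mutant and below it in the other libraries. It had 611 reads in Col-0, 1835 in *suvr5-1*, 546 in the double mutant and 1489 in the triple mutant, or 76.7, 147, 78.3 and 185 RPKM. Col-0 and the double mutant were at the same level, and both libraries with the *suvr5-1* mutation were above them. The ratio to Col-0 was 1.92 in *suvr5-1* (1.75 to 2.11), 1.02 in the double mutant (0.908 to 1.15) and 2.41 in the triple mutant (2.19 to 2.65). The triple mutant was 2.36-fold above the double mutant (2.14 to 2.61) and 1.25-fold above *suvr5-1* (1.17 to 1.34). Both parts of the transcript were higher in the triple mutant, by log2 1.26 over the 1349 bases at the 5′ end and 1.27 over the 1349 bases at the 3′ end. Counted once per position, *OPT3* was at log2 0.80 in the triple mutant and 0.70 in *suvr5-1*, and scaled by all nuclear reads it was at 1.21 in *suvr5-1*.

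Vein markers were read in every library. The 6 phloem markers analysed had a summed RPKM of 444, 397, 442 and 484 in Col-0, *suvr5-1*, the double mutant and the triple mutant. Their median RPKM was 10.4, 10.4, 7.99 and 13.7. The 4 xylem markers analysed had a summed RPKM of 22.1, 43.0, 78.4 and 34.9 and a median of 2.39, 7.41, 12.5 and 6.03, all mutants above Col-0. In the double mutant all 4 were over 2-fold higher, where 14.4% of all genes were. The part of the vein markers in the levels of *YSL1* and *OPT3* was not tested.

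*FRO3* (AT1G23020, chromosome 1, 8149868 to 8153796, minus strand) encodes a ferric reductase of mitochondria. It had 118, 275, 85 and 152 reads in Col-0, *suvr5-1*, the double mutant and the triple mutant, or 14.3, 21.4, 11.8 and 18.3 RPKM. *suvr5-1* was the highest and the double mutant the lowest. The ratio to Col-0 was 1.49 in *suvr5-1* (1.20 to 1.87), and the intervals in the double mutant (0.823, 0.615 to 1.097) and in the triple mutant (1.27, 0.994 to 1.63) held 1. *FRO3* was 1.81-fold lower in the double mutant than in *suvr5-1* (1.42 to 2.34), and over 2-fold lower when scaled by all nuclear reads (log2 -1.09) or counted once per position (-1.44). The triple mutant was 1.55-fold above the double mutant (1.18 to 2.04), or at log2 1.05 counted once per position. Over the 1392 bases at the 5′ end the log2 ratios to Col-0 were 0.36 in *suvr5-1*, -0.59 in the double mutant and -0.60 in the triple mutant. Over the 1393 bases at the 3′ end they were 0.63, -0.21 and 0.51. In the triple mutant the 5′ interval (-1.61 to 0.37) spanned both signs, and the 3′ interval (0.125 to 0.91) lay above Col-0.

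*BTS* (AT3G18290, chromosome 3, 6273966 to 6280562, plus strand, 14 exons) encodes BRUTUS, an E3 ubiquitin ligase with iron-binding hemerythrin domains that marks basic helix-loop-helix factors of the iron response for degradation. It had 148 reads in Col-0, 512 in *suvr5-1*, 169 in the double mutant and 455 in the triple mutant, or 11.1, 24.7, 14.5 and 33.8 RPKM. The order of the 4 libraries was that of *OPT3*. The ratio to Col-0 was 2.22 in *suvr5-1* (1.84 to 2.68), 1.30 in the double mutant (1.04 to 1.64) and 3.04 in the triple mutant (2.52 to 3.68). The triple mutant was 2.33-fold above the double mutant (1.95 to 2.79) and 1.37-fold above *suvr5-1* (1.21 to 1.56). Toward the 5′ end (2247 bases) the log2 ratios were 1.82 in *suvr5-1*, 0.99 in the double mutant and 1.75 in the triple mutant, and toward the 3′ end (2248 bases) they were 0.80, 0.08 and 1.54. Counted once per position, *BTS* was at log2 0.83 in *suvr5-1*, under 2-fold, at -0.07 in the double mutant and at 1.17 in the triple mutant.

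*BHLH101* (AT5G04150, chromosome 5, 1138410 to 1139633, minus strand) encodes a basic helix-loop-helix factor that is induced by iron shortage and works with FIT in roots. It had 0 reads in Col-0, 5 in *suvr5-1*, 0 in the double mutant and 3 in the triple mutant. The reads were seen only in the 2 libraries with the *suvr5-1* mutation. Of its 1083 exon bases, 79 are shared with the neighbouring *GLU1*. A count of 0 allows 0.938 RPKM in Col-0 and 1.07 in the double mutant, beside 1.00 and 0.926 measured in *suvr5-1* and the triple mutant, so no difference was detectable.

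**Figure D3:**
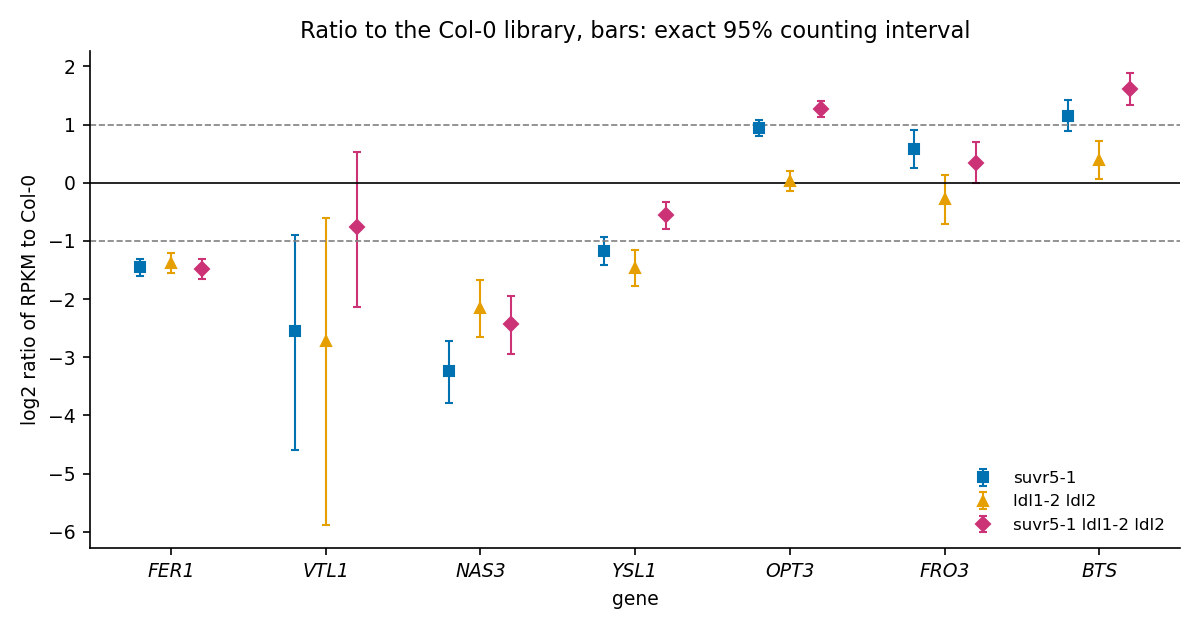
Log2 ratio of RPKM to the Col-0 library (vertical axis) for the 7 iron genes with at least 10 reads in either library (horizontal axis) in the 3 mutants; bars are exact 95% counting intervals, and dashed lines mark 2-fold. *FER1* has similar ratios in all mutants (-1.45, -1.38 and -1.49), whereas *OPT3* is at 0.94 and 1.27 in the libraries with *suvr5-1* and at 0.03 in *ldl1-2 ldl2*.

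Reads within 1 library can be compared without any library size. The ratio of *OPT3* to *NAS3* reads per exon base was 1.42 in Col-0 (1.22 to 1.67), 25.8 in *suvr5-1* (18.6 to 36.7), 6.45 in the double mutant (4.74 to 8.99) and 18.4 in the triple mutant (13.6 to 25.7). Every mutant was above Col-0, and the 2 libraries with *suvr5-1* were above the double mutant. The ratio of *BTS* to *FER1* was 0.0430 in Col-0, 0.261 in *suvr5-1*, 0.146 in the double mutant and 0.366 in the triple mutant, with intervals that did not overlap. The ratio of *BTS* to *OPT3* moved little, at 0.145 in Col-0 (0.121 to 0.174), 0.167 in *suvr5-1* (0.152 to 0.185), 0.186 in the double mutant (0.155 to 0.221) and 0.183 in the triple mutant (0.165 to 0.204). Other genes on the same side of Col-0 did move against each other. *FER1* to *NAS3* was at 4.82, 16.5, 8.24 and 9.24 in the same order, and *FER1* to *YSL1* at 5.77, 4.75, 6.10 and 3.03. All pairs are of genes listed with their values known, so their shifts are a description.

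**Figure D4:**
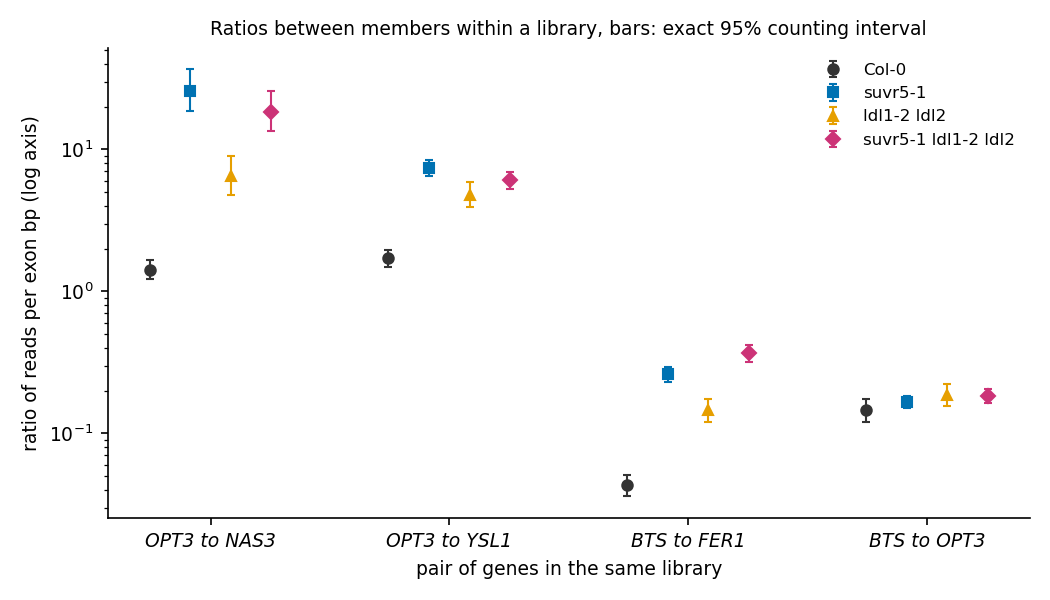
Ratio of reads per exon base between pairs of iron genes in the same library (vertical log axis) for 4 pairs (horizontal axis) and 4 libraries; bars are exact 95% counting intervals. *OPT3* to *NAS3* spreads from 1.42 in Col-0 to 25.8 in *suvr5-1*, and *BTS* to *OPT3* stays between 0.145 and 0.186.

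Read starts were unevenly spread along these genes. In *FER1*, *NAS3* and *OPT3* most reads lay in the 3′ part in all 4 libraries, and in *BTS* the highest bin started 4000 bases after the annotated start in every library.

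**Figure D5:**
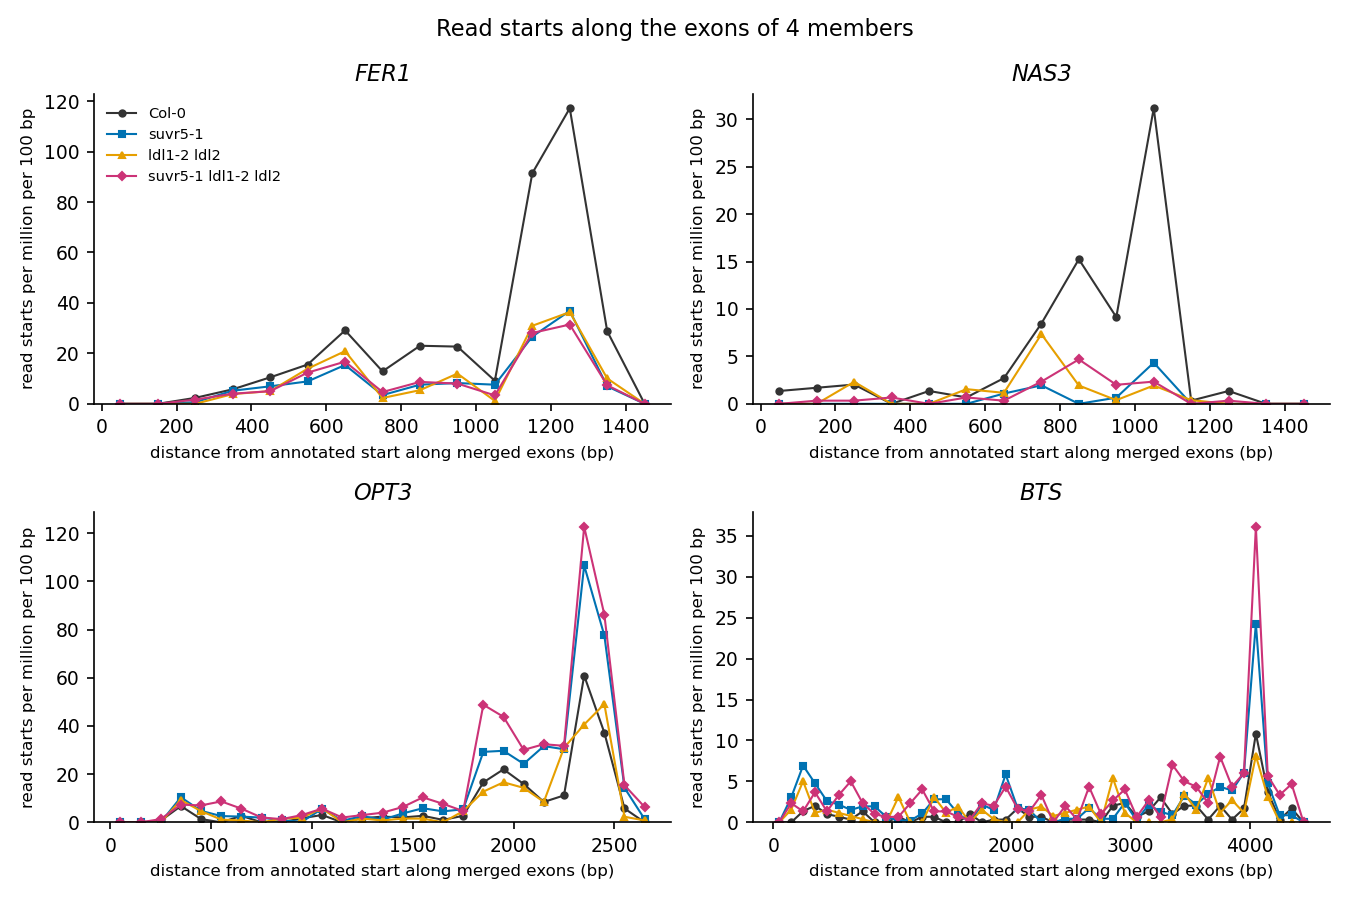
Read starts per 1000000 reads on analysed genes per 100 bases (vertical axis) along the merged exons of *FER1*, *NAS3*, *OPT3* and *BTS*, by distance from the annotated start (horizontal axis), for the 4 libraries. The Col-0 line is highest at the 3′ end of *FER1* and *NAS3*, and the *suvr5-1* and triple mutant lines are highest at the 3′ end of *OPT3* and *BTS*.

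Between mutants, 6 of the 10 genes had at least 10 reads in either library. From *suvr5-1* to the triple mutant, 0 of the 6 were over 2-fold higher or lower, where 14.5% and 9.44% of 9531 genes were. From the double mutant to the triple mutant, *OPT3* and *BTS* were over 2-fold higher and 0 genes were lower, where 16.6% and 10.3% of 9311 genes were. From *suvr5-1* to the double mutant, *NAS3* was over 2-fold higher and 0 genes were lower, where 11.2% and 12.6% of 9521 genes were. Scaled by all nuclear reads, this turned to 0 genes higher and 2 lower, *FRO3* (log2 -1.09) and *OPT3* (-1.14), with *NAS3* at 0.86. *FER1* ranged from 92.5 to 99.9 RPKM over the 3 mutants. *OPT3* and *BTS* were nearer to the Col-0 level in the double mutant than in either library with *suvr5-1*, and *YSL1* was lower in *suvr5-1* and the double mutant than in the triple mutant. *NAS3* and *FRO3* differed between *suvr5-1* and the double mutant in opposite directions.

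Other genes of the iron pathway were taken from lists by role, and are given as counts over 2-fold beside the shares of all genes above. Of 16 regulators of the iron deficiency response, 5 were analysed. Among those with enough reads, 1 of 3 was higher in *suvr5-1*, 1 of 4 in the double mutant and 2 of 4 in the triple mutant, and none was lower. They are *BHLH034*, with 14 reads in Col-0, 44 in *suvr5-1*, 20 in the double mutant and 43 in the triple mutant, and *BTSL2*, a root relative of *BTS*, with 2, 9, 12 and 32. Both were named after their values were seen. With 14 Col-0 reads, *BHLH034*, which promotes the iron deficiency response, was only just over 2-fold higher in *suvr5-1*. It was over 2-fold higher in the triple mutant too. *BHLH104*, of the same group, was at log2 -0.21, 0.31 and 0.12. Of 9 genes of storage and the vacuole, only *FPN2* was analysed, with at most 2 reads.

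Of 12 root uptake genes, 8 were analysed and 2 or 3 had enough reads. None was over 2-fold higher or lower in *suvr5-1* and the double mutant. In the triple mutant *F6'H1*, which makes the iron-mobilising coumarin scopoletin, had 285 reads against 1 in Col-0, 6 in *suvr5-1* and 0 in the double mutant.

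Of 12 genes of chelation and long-distance transport, 5 were analysed. *NAS1*, another nicotianamine synthase, had 67 reads in Col-0, 130 in *suvr5-1*, 13 in the double mutant and 61 in the triple mutant, so it was low in the double mutant alone, with a log2 ratio of -2.17 (-3.16 to -1.30). This order was unlike that of *NAS3*. *YSL2*, named after its values were seen, was the gene over 2-fold higher in the double mutant, with 15 reads against 6. *YSL5* and *NRAMP6* stayed between log2 -0.63 and 0.82 in the 3 mutants.

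Of 13 genes of organelle iron and ferric reduction, 5 were analysed and 3 had enough reads. The ferric reductase gene *FRO4* had 119 reads in Col-0, 63 in *suvr5-1*, 85 in the double mutant and 18 in the triple mutant, with log2 ratios of -1.56, -0.29 and -2.74. Of 16 genes of iron-sulphur cluster assembly, 11 were analysed, all with enough reads. The chloroplast scaffold gene *SUFB* was lower in *suvr5-1*, at log2 -1.03 (-1.16 to -0.90), and *NFU3*, which hands clusters to photosystem I, was lower in the triple mutant, at -1.18 (-1.40 to -0.97). None was over 2-fold higher in any mutant, and the list's median log2 ratio was -0.16, -0.61 and -0.18.

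Of 12 genes of superoxide dismutases and copper, 8 were analysed. *FSD1*, an iron superoxide dismutase gene, had 287 reads in Col-0, 193 in *suvr5-1*, 127 in the double mutant and 14 in the triple mutant. Its log2 ratios were -1.22, -0.98 and -4.38. *CSD1*, the copper/zinc enzyme of the cytosol, had 3052, 5727, 3108 and 7020 reads, with log2 ratios of 0.26, 0.22 and 1.18. In the triple mutant *CSD1* was the 1 gene of 8 over 2-fold higher and *FSD1* the 1 lower, and 6 were neither. In *suvr5-1* 0 were higher and 1 lower, and in the double mutant 0 were higher or lower. The copper regulator *SPL7* was at 0.88 in the triple mutant.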

How the data were processed

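The libraries were poly(A) mRNA of leaves, read on an Illumina Genome Analyzer. The deposited files, made by the authors, hold 1 line for each mapped read with its chromosome, strand and leftmost position, in no other unit and with no count per gene. The submitters' processing notes name Bowtie; the assembly and the treatment of reads with several matches are not given in the sources used here. Read positions were compared with exon starts of RefSeq's TAIR10.1 in 478 windows of 250 kb, and 205 windows with a displacement of at most 30 bp, in 6 stretches (42.9% of the nuclear assembly), were used; no position was converted. A read counted for every gene whose merged exons held its position, on either strand, and RPKM was computed from these counts with reads on analysed genes as the total. The study's methods test RPKM by Fisher's exact test; no test was used here, because 1 library for each genotype gives no replicate error and the genes were chosen with their values known. The members and the other gene lists were chosen with earlier results of these data known. A gene was compared with at least 10 reads in either library and called over 2-fold (or 4-fold). All 10 genes are described. Of other lists, those past 2-fold against Col-0 with at least 50 reads are named, along with those said to be named after their values were seen. *BHLH104*, *FPN2*, *YSL5*, *NRAMP6* and *SPL7* are named outside this rule, as they were not called over 2-fold. Library sizes by all nuclear reads, median-of-ratios and trimmed means, counting each position once, whole genes, exons widened by 30 bp, shared exon bases left out, and count minimums of 0 and 100 were tried as alternatives. Ratio intervals were tried on simulated independent counts only. Such counts hold no repeated reads, so the simulation cannot show that the intervals hold for these libraries. Python 3.11.15, NumPy 2.4.6, pandas 2.3.3, SciPy 1.17.1 and Matplotlib 3.10.9 were used.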

Additional observations from a re-analysis of the deposited data

Results flagged for a closer look

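Reads on the organelle genomes were not part of the comparisons. The chloroplast took 10.7% of the mapped reads in *ldl1-2 ldl2* against 7.82% in Col-0. The mitochondrial share was 4.50% in *ldl1-2 ldl2* and 4.21% in the triple mutant against 3.86% in Col-0. These shares were above Col-0, but with 1 library for each genotype their spread between libraries is not known. Their part in the levels of the iron genes was not tested. In *suvr5-1* the chloroplast and mitochondrial shares were 7.65% and 3.21%.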

How the results depend on the processing

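No paired analysis was possible because each genotype has 1 library. The count of iron genes over 2-fold in *suvr5-1* against Col-0 was 5, and 3 with each position counted once. From *suvr5-1* to *ldl1-2 ldl2* the count was 1, with 2 by all nuclear reads (0 higher and 2 lower, against 1 higher and 0 lower), 2 with each position counted once (1 higher and 1 lower), 3 with no filter on low counts and 0 with at least 100 reads. For the triple mutant it was 2 against *ldl1-2 ldl2* and 4 with no filter, and 0 against *suvr5-1* and 2 with no filter. The counts of the triple mutant and *ldl1-2 ldl2* against Col-0 stayed within 1.5 times under every alternative. Scaling by all nuclear reads moved the median log2 ratio of all genes in *suvr5-1* against Col-0 from 0.02 to 0.29, and *BTS*, *OPT3* and *NAS3* kept their direction there. Of 308 ratios of single genes under the alternatives, 277 stayed inside their counting interval, 31 left it (17 with each position counted once) and 0 of those over 2-fold changed sign. Under 2-fold in at least 1 alternative were *BTS* in *suvr5-1* (0.83), *FER1* in *suvr5-1* (-0.81) and *ldl1-2 ldl2* (-0.95), *YSL1* in *suvr5-1* (-0.91), *OPT3* in the triple mutant against Col-0 (0.80) and *ldl1-2 ldl2* (0.81), and *NAS3* in *ldl1-2 ldl2* against *suvr5-1* (0.86). *FER2*, *VIT1* and *BHLH101* were limited by depth, and *VTL1* gave wide intervals.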

Other observations

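Lists of stress and senescence genes held members over 2-fold from Col-0 in both directions, to be read beside the shares of all genes given for each mutant above. *ZAT10*, a zinc finger factor of the light and oxidative stress response, had 119 reads in Col-0, 420 in *suvr5-1*, 370 in the *ldl1-2 ldl2* double mutant and 485 in the triple mutant, with log2 ratios of 1.18, 1.83 and 2.01. *WRKY53*, a factor of early leaf senescence, had 22, 159, 122 and 460 reads in the same order, with log2 ratios of 2.21, 2.66 and 4.37. *SEN1*, a gene induced in the dark and in senescence, went the other way, with 2365, 1631, 1035 and 404 reads. *SAG21*, a late embryogenesis abundant-like protein gene, had 1252, 3951, 2207 and 5485 reads. Of 9 senescence genes, 4 were analysed; 2 were over 2-fold higher and 1 lower in each mutant.

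Among 10 genes of the hydrogen peroxide and high light response, 9 were analysed, and 1 of 7 was over 2-fold higher and 2 lower in *suvr5-1*, 2 of 8 and 2 in *ldl1-2 ldl2*, and 3 of 8 and 0 in the triple mutant. *CAT1*, a catalase gene, was lower in *suvr5-1* (log2 -1.18), and *GSTU24*, a glutathione transferase gene, was lower in *suvr5-1* and *ldl1-2 ldl2* (-1.06 and -1.09). *ELIP1*, an early light-induced protein gene, was higher in the triple mutant (1.60). Of 10 genes of phosphate starvation, 7 were analysed. Over 2-fold lower was 1 of 6 in *suvr5-1*, the acid phosphatase gene *PAP17* (-1.08). In *ldl1-2 ldl2* 2 of 7 were higher, *MGD2* (1.02) and *PHO1* (1.72), and in the triple mutant 1 of 7 was lower, *MGD2* (-1.45), these 2 genes being named after their values were seen. The xylem marker genes *XCP1* (17, 90 and 85 reads in Col-0, *suvr5-1* and *ldl1-2 ldl2*) and *XCP2* (68 reads in Col-0 and 186 in *ldl1-2 ldl2*), both for proteases, were over 2-fold higher in these mutants.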
